A study of Homo sapiens with 12 samples.

Results

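Selenoproteins contain selenocysteine, an amino acid that is inserted at an in-frame UGA codon which would otherwise end translation. Decoding needs a stem-loop in the 3′ part of the mRNA (the SECIS element), the binding protein SECISBP2, the elongation factor EEFSEC and a dedicated tRNA. Most selenoproteins are redox enzymes that remove peroxides, reduce thioredoxin or act in protein quality control of the endoplasmic reticulum. Because the codon can be read as a premature stop, ribosome loading on these mRNAs and their decay by the nonsense-mediated pathway have long been studied together.

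The 10 mRNAs described here are a named set of selenoprotein mRNAs, chosen with earlier results of these data known: GPX1, GPX4, TXNRD1, TXNRD2, SELENOF, SELENOT, SELENOW, SELENOK, SELENOS and SEPHS2. They are 10 of the 56632 genes in the tables, and all 10 were among the 16275 genes that passed the filter on low counts. GPX1 and GPX4 are glutathione peroxidases, of which GPX1 reduces hydrogen peroxide and GPX4 reduces lipid hydroperoxides in membranes. TXNRD1 in the cytosol and TXNRD2 in mitochondria are the reductases that keep thioredoxin reduced. SELENOF, SELENOT, SELENOK and SELENOS belong to the endoplasmic reticulum, SELENOK and SELENOS as membrane proteins of the degradation machinery there. SELENOW is a small cytosolic protein with a thioredoxin-like fold, and SEPHS2 makes the selenophosphate from which selenocysteine is built.

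The libraries came from MCF10A, a human breast epithelial line that does not form tumors, either wild type (WT) or with CBFB deleted by CRISPR-Cas9 (CBFB_KO). Colonies grown from single cells were selected for the knockout, and neither the labels nor the methods say how many clones stand behind these libraries. Both genotypes were below passage 20, were grown in the same medium with horse serum, insulin, EGF, hydrocortisone and cholera toxin, and were held in 100 µg/ml cycloheximide, which stalls ribosomes on mRNA, before lysis. Lysates were spun through 10 to 50% sucrose gradients, and the RNA of the free, monoribosomal (mono) and polyribosomal (poly) fractions was sequenced in 2 replicates of each of the 6 conditions, 12 libraries in all. The labels do not say that replicates were separate cultures, so the p-values measure the spread between these libraries, which may be technical. The study asked whether CBFB, a transcription factor subunit also present in the cytoplasm, acts on translation.

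CBFB mRNA itself was present in every library. As CPM (a gene's count over the library total after scaling by TMM factors, which serves to compare 1 gene between libraries), it was at 5.37 and 12.6 in WT free, 8.03 and 6.20 in WT mono, and 5.72 and 6.84 in WT poly. In CBFB_KO it was at 11.3 and 14.1 in free, 4.79 and 3.89 in mono, and 3.59 and 4.01 in poly. Both CBFB_KO libraries lay below both WT libraries in mono and in poly but not in free, and no difference passed the threshold (log2 fold change -0.71 ± 0.43 in mono, -0.72 ± 0.43 in poly and 0.49 ± 0.43 in free, SE, n = 2 libraries per condition; edgeR adjusted p = 1 in mono and poly and 0.373 in free). Whether the edit leaves the transcript in place was not tested, so this level is no proof of either label.

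Each library held between 41050325 and 63886726 counts. The CBFB_KO free libraries stood apart: mitochondrially encoded genes took 71.6% and 87.2% of their counts, against 11.1% and 20.8% in WT free and at most 8.08% in the other fractions. That left 13568143 and 5247878 counts on other genes in CBFB_KO free and at least 43279862 elsewhere. The CBFB_KO poly libraries were nearly the same (mean chi-square of 2.26 per gene between them, against 129 to 987 in the other conditions), so their spread may understate that between cultures. All 8 basal epithelial markers listed were detected in every library, with KRT5 at 83.9 TPM or more, KRT17 and KRT6A at 5.58 and 6.45 TPM or more, and KRT14, TP63 and LAMB3 down to 0.09, 0.14 and 0.57 TPM. Of 6 luminal markers, KRT18 and KRT8 were at 4.28 and 4.04 TPM or more and PGR was at 0. GATA3 (0.30 to 7.9 TPM), FOXA1 (0.05 to 3.95 TPM) and ESR1 (0.02 to 0.59 TPM) were detected in every library. The blood marker PTPRC was at 0 in all 12, HBB reached 0.14 TPM and the endothelial marker VWF 0.03 TPM. Of 4 fibroblast markers, COL1A1, DCN and PDGFRA reached 2.01, 1.71 and 0.27 TPM, and COL3A1 was at 0. No total RNA amount per fraction is known, so each change is relative to the rest of a library, and fewer molecules of an mRNA cannot be told apart from more of other RNA.

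All 10 selenocysteine codons were found in GENCODE release 29 (GRCh38), matched by gene identifier, while the labels name hg19 for the deposited tables. The codon fell within 2 residues of the end of the protein in 4 mRNAs (TXNRD1, TXNRD2, SELENOK and SELENOS) and further inside in the other 6. Only SEPHS2 is encoded by a single exon, and only SEPHS2 also ends on TGA as its true stop. In 6 mRNAs (GPX1, GPX4, TXNRD2, SELENOF, SELENOT and SELENOW) the codon lies more than 55 bases before the last exon junction, the distance usually given for a stop that nonsense-mediated decay can sense. In CBFB_KO against WT free alone, 24.2% of all genes tested were higher and 18.1% lower. The share of all genes that passed the test in at least 1 comparison below is not given here. All 10 mRNAs passed in at least 1. The coding sequence around the codon is shown for 6 of them, 30 bases each and 5′ to 3′ on the coding strand, with the selenocysteine codon in capitals:
GPX1: aatgtggcgtccctcTGAggcaccacggtc
GPX4: aacgtggcctcccagTGAggcaagaccgaa
SELENOW: gtttattgtggcgctTGAggctacaagtcc
SELENOF: cttgaagtttgtggaTGAaaattgggaagg
TXNRD1: agcatcctccaggctggctgcTGAggttaa
TXNRD2: gaccccacggtgacaggctgcTGAgggtaa

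These codons stand at residue 49 of 203 in GPX1 (exon 1 of 2, chr3:49358132-49358134, minus strand), 73 of 197 in GPX4 (exon 3 of 7, chr19:1105403-1105405, plus strand) and 13 of 87 in SELENOW (exon 2 of 6, chr19:47780732-47780734, plus strand). In SELENOF the codon is residue 96 of 165 (exon 3 of 5, chr1:86880690-86880692, minus strand). In TXNRD1 it is residue 498 of 499 (exon 15 of 15, chr12:104348413-104348415, plus strand) and in TXNRD2 residue 523 of 524 (exon 17 of 18, chr22:19877111-19877113, minus strand), so that the lines of both end on the true stop, taa. The base after the codon was g in 9 of the 10 mRNAs. SELENOF, where an a follows, was the exception.

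The levels of these mRNAs, compared between genes per length as TPM over genes outside the mitochondrial genome, spanned 2 orders of magnitude in WT poly. There GPX1 was highest at 963 and 874 TPM. SELENOW followed at 482 and 547 TPM and GPX4 at 499 and 495 TPM, and the libraries of these 2 overlapped. SELENOT (55.3 and 61.0 TPM) and SELENOK (60.1 and 55.7 TPM) overlapped as well, above SELENOS at 41.7 and 44.9 TPM and TXNRD2 at 28.3 and 32.5 TPM. SEPHS2 (15.7 and 16.9 TPM) lay within the spread of SELENOF (12.5 and 21.6 TPM). TXNRD1 was lowest, at 5.04 and 8.31 TPM.

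In WT mono the order changed: SELENOW was highest at 1959 and 1655 TPM, above GPX1 at 1217 and 848 TPM, and TXNRD1 was again lowest at 0.920 and 0.475 TPM. GPX1 and SELENOW together held 79.8% and 82.2% of all counts on the 10 mRNAs in WT mono and 65.8% and 67.5% in WT poly. In CBFB_KO free they held 59.9% in 1 library and 78.3% in the other. The 10 mRNAs took between 0.161% and 0.428% of the counts of a WT library, and 0.0287% and 0.00598% in the CBFB_KO free libraries. These totals include the mitochondrial counts. Of the counts outside the mitochondrial genome, they took between 0.194% and 0.447% in WT, and 0.101% and 0.0468% in CBFB_KO free.

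**Figure D1:**
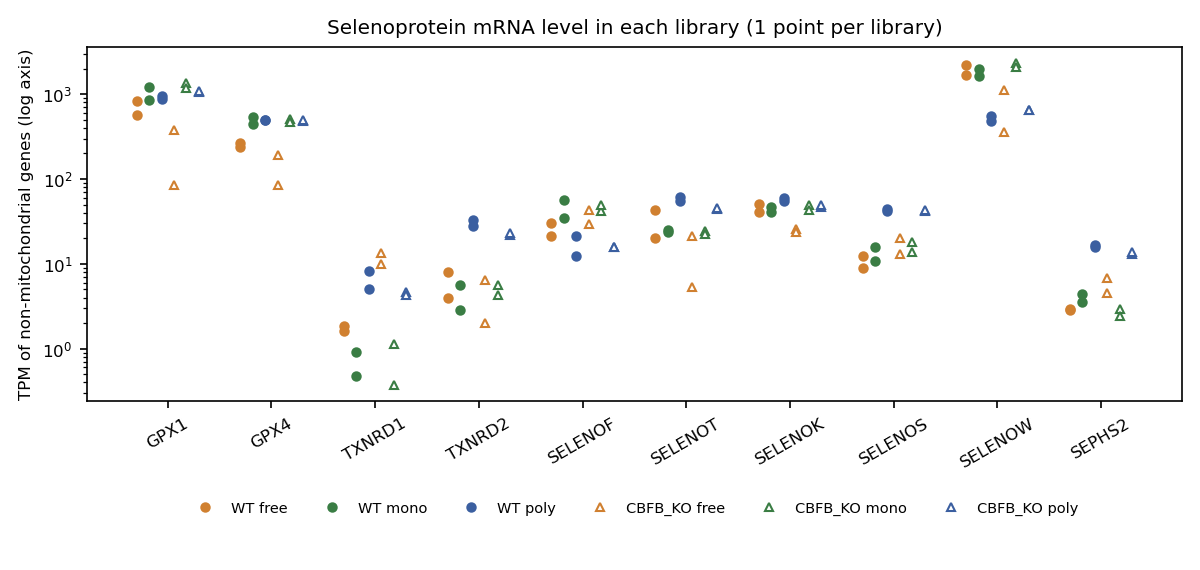
Level of each selenoprotein mRNA in the 12 libraries, as TPM over genes outside the mitochondrial genome on a log axis. Filled circles are WT and open triangles CBFB_KO, colors give the fraction, and each point is 1 library. SELENOW, GPX1 and GPX4 lie above the other 7 in WT poly, and the 2 CBFB_KO free libraries of GPX1 lie below the other 10.

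The first comparison asked where on the WT gradient each mRNA was found. Between poly and mono, 2 mRNAs were higher in poly and 3 were lower, against 11.0% and 9.68% of all genes tested. The thioredoxin reductases were the higher pair, and SELENOW, SELENOF and GPX4 were the lower ones. The median log2 fold change of the 10 was -0.83, and that of all genes was -0.04.

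TXNRD1 was at 11.5 and 16.8 CPM in WT poly and at 4.03 and 3.10 CPM in WT mono. TXNRD2 was at 31.6 and 31.8 CPM in poly and 13.5 and 7.50 CPM in mono. For both reductases the fractions did not overlap, and the log2 fold changes were 1.99 ± 0.37 for TXNRD1 (SE, n = 2; edgeR adjusted p = 0.00559) and 1.59 ± 0.49 for TXNRD2 (adjusted p = 0.0397). A lack of overlap does not mark them out, since poly lay above mono in 4 members, below it in 6 and overlapped it in 0. The share of all genes without overlap is not given here.

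SELENOW went the other way, with 192 and 196 CPM in WT poly and 1709 and 1653 CPM in WT mono. SELENOF was at 8.20 and 12.9 CPM in poly and 56.4 and 118 CPM in mono. The log2 fold changes were -3.11 ± 0.52 for SELENOW (SE, n = 2; edgeR adjusted p = 0.00418) and -3.05 ± 0.54 for SELENOF (adjusted p = 0.00482). GPX4 was at 235 and 203 CPM in poly and 573 and 547 CPM in mono, a log2 fold change of -1.35 ± 0.42 (adjusted p = 0.0418). GPX1 was at 635 and 504 CPM in poly and 1903 and 1552 CPM in mono, groups that did not overlap, yet its log2 fold change of -1.60 ± 0.55 missed the threshold (adjusted p = 0.0586). SELENOK had a log2 fold change of -1.06 ± 0.36 (adjusted p = 0.0560), and those of SELENOT, SELENOS and SEPHS2 lay between -0.60 and 0.61. With the gradient (genotype and replicate number) as a block, TXNRD2 (adjusted p = 0.0618) and GPX4 (adjusted p = 0.0653) no longer passed in edgeR.

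Between poly and free in WT, 4 mRNAs were higher in poly and 1 was lower, against 14.0% and 7.99% of all genes. SEPHS2 was at 21.98 and 21.4 CPM in poly and at 5.98 and 4.84 CPM in free (log2 fold change 2.00 ± 0.33, SE, n = 2; edgeR adjusted p = 0.00300). SELENOS was at 28.99 and 26.8 CPM in poly and 12.5 and 7.18 CPM in free (1.503 ± 0.37, adjusted p = 0.0167). TXNRD1 was at 5.38 and 4.80 CPM in free and TXNRD2 at 5.34 and 11.2 CPM there, below their poly libraries by log2 fold changes of 1.48 ± 0.37 and 1.94 ± 0.49 (adjusted p = 0.0164 and 0.0182). SELENOW was the member that was lower in poly than in free, with 1184 and 665 CPM in free (log2 fold change -2.25 ± 0.50, adjusted p = 0.0102). With the offset for gene length described below, TXNRD1 (0.68) did not pass and GPX4 (0.99) did. Without WT replicate 1 only SEPHS2 passed, and without replicate 2 only SEPHS2 and TXNRD2.

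From free to mono in WT, 2 mRNAs were higher and 0 lower, against 5.55% and 1.43% of all genes. GPX4 was at 148 and 113 CPM in free, below its mono libraries by a log2 fold change of 2.10 ± 0.43 (SE, n = 2; edgeR adjusted p = 0.0204). SEPHS2 was at 14.9 and 13.6 CPM in mono, above free by 1.40 ± 0.33 (adjusted p = 0.0320). At an unadjusted p under 0.05, 6 of the 10 passed in this comparison, as did 3821 of the 16275 genes tested. DESeq2 called 4 of the 10, and its share over all genes is not given here. Leaving out either WT replicate left 0 calls, and with the gradient block SEPHS2 (edgeR adjusted p = 0.0615) no longer passed.

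In CBFB_KO the poly to mono contrast gave 1 mRNA higher in poly and 4 lower, against 8.20% and 8.66% of all genes. TXNRD1 was at 10.3 and 9.35 CPM in poly and 3.51 and 2.81 CPM in mono (log2 fold change 1.63 ± 0.37, SE, n = 2; edgeR adjusted p = 0.0146). SELENOW was at 273 and 272 CPM in poly and 1980 and 2544 CPM in mono (-3.05 ± 0.52, adjusted p = 0.00649). SELENOF was at 12.4 and 12.8 CPM in poly and 62.6 and 122 CPM in mono (-2.87 ± 0.54, adjusted p = 0.00815). GPX4 (-1.37 ± 0.42, adjusted p = 0.0462) and SELENOK (-1.23 ± 0.36, adjusted p = 0.0373) were the other lower members. With the nearly identical poly pair counted as 1 sample, or with either CBFB_KO replicate left out, 0 of the 10 passed, and without WT replicate 1 TXNRD1, SELENOW and SELENOF did. With the gradient block GPX4 (edgeR adjusted p = 0.069) and SELENOK (adjusted p = 0.0566) no longer passed.

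The test of the difference between genotypes in the poly to mono contrast called 0 of the 10 in either direction, with 0.00% of all genes higher and 0.00% lower in edgeR. At an unadjusted p under 0.05 it gave 0 members and 164 of all genes, and DESeq2 called 0 members. The differences ranged from -0.56 (TXNRD2, SE 0.68) to 0.37 (SEPHS2, SE 0.46) on the log2 scale, so the SEs allow sizeable differences either way.

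**Figure D2:**
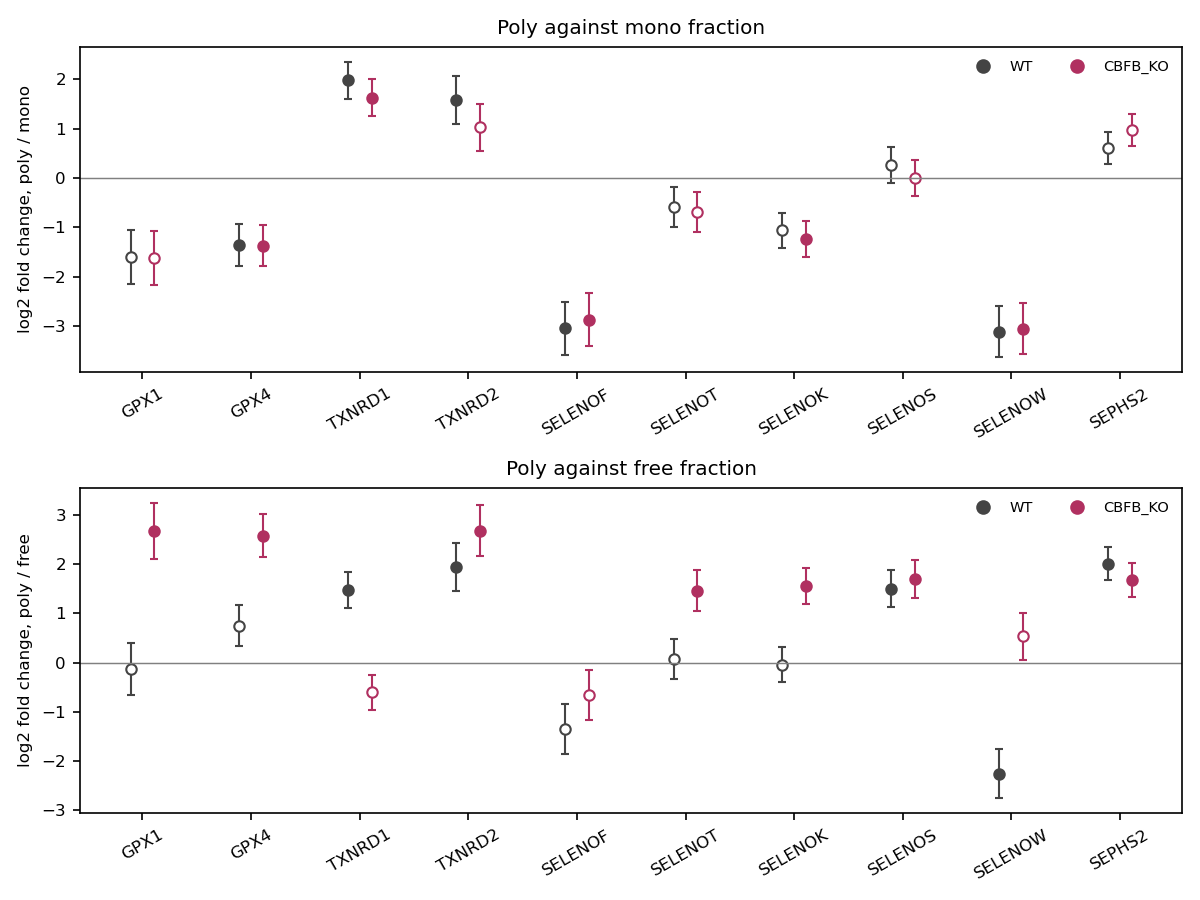
Log2 fold change of each mRNA between poly and mono (top) and between poly and free (bottom) in WT and CBFB_KO, with SE bars. Filled points passed an edgeR adjusted p of 0.05 and open points did not. The 2 genotypes lie close together at the top, and at the bottom GPX1 (-0.12 in WT, 2.68 in CBFB_KO) and TXNRD1 (1.48 in WT, -0.61 in CBFB_KO) lie far apart.

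The poly to mono changes rose with gene length. Across the 10 mRNAs, the WT poly to mono log2 fold change and effective length had a Spearman correlation of 0.79, and across all 16275 genes it was 0.50, given as a description since genes share libraries. SELENOW (536 bases of mean effective length) and SELENOK (599) are the shortest of the 10, and TXNRD1 (2965) is the longest, beside a median of 1686 for all genes tested. Where each library's smooth trend of counts with effective length was removed by an offset, the WT poly to mono changes of SELENOF (-2.51), SELENOW (-1.80), TXNRD1 (1.31) and TXNRD2 (1.62) still passed and that of GPX4 (-0.17) did not. In CBFB_KO, SELENOF (-2.28) and SELENOW (-1.78) still passed, and GPX4 (-0.21), SELENOK (-0.04) and TXNRD1 (0.99) did not. SELENOF, at 1043 bases, lay furthest below genes of its length. The scaling mattered too. Without TMM factors the median of all genes moved to 0.81 in WT poly against mono, to 0.61 in WT poly against free and to -0.26 in WT mono against free, and the same 2 mRNAs of the poly to mono contrast were called higher (TXNRD1 2.87, TXNRD2 2.45) and SELENOW (-2.24) and SELENOF (-2.13) lower. With WT replicate 2 left out, no member passed in WT poly against mono, and without replicate 1 only TXNRD1 and SELENOF did.

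**Figure D3:**
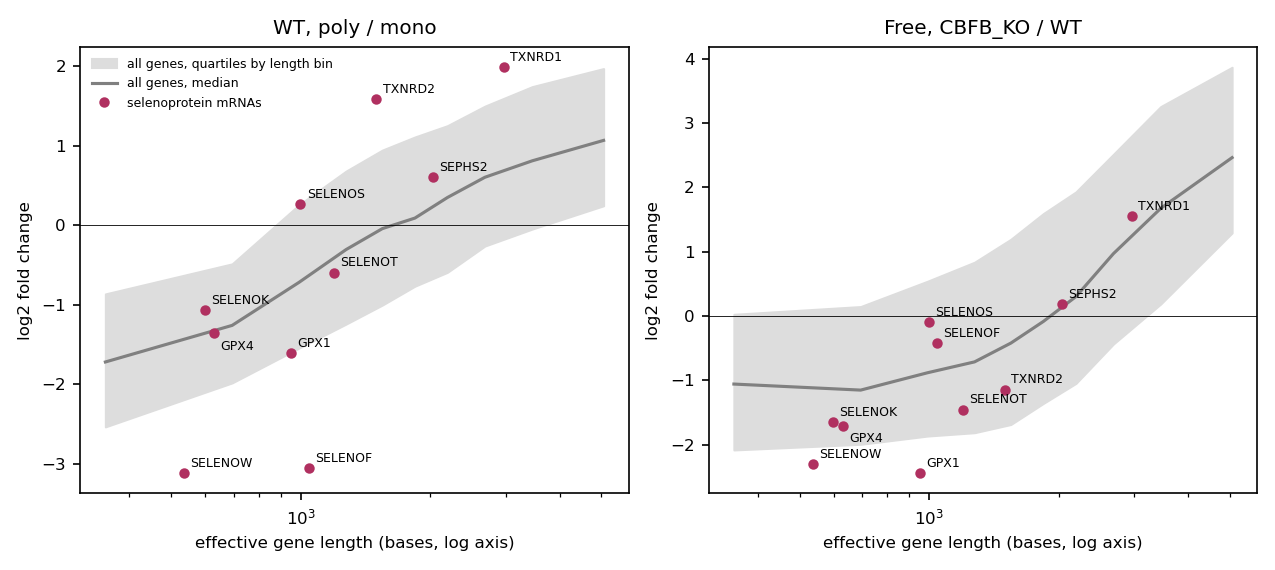
Log2 fold change against effective gene length (log axis) for WT poly against mono (left) and for CBFB_KO against WT in the free fraction (right). Points are the 10 selenoprotein mRNAs, the grey line is the median and the band the quartiles of all genes tested in 10 bins of length. Both medians rise with length, from -1.72 in the shortest bin to 1.07 in the longest on the left and from -1.06 to 2.46 on the right, and SELENOF and SELENOW lie below the band on the left.

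The second comparison asked whether the loss of CBFB went with a change of each mRNA within a fraction. In the poly fraction 0 of the 10 differed between CBFB_KO and WT by edgeR, against 0.0246% of all genes higher and 0.166% lower. In mono it was also 0 of 10, against 0.0307% and 0.117%. No member had an unadjusted p under 0.05 in either fraction (lowest 0.169 in poly and 0.143 in mono), while 451 and 712 of all genes did, and DESeq2 called 0 members in both. The log2 fold changes of the members ran from -0.53 (TXNRD1, SE 0.36) to 0.49 (SELENOW, SE 0.48) in poly and from -0.51 (SEPHS2, SE 0.32) to 0.43 (SELENOW, SE 0.48) in mono.

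In poly, SELENOW was at 273 and 272 CPM in CBFB_KO beside 192 and 196 CPM in WT, and TXNRD1 was at 10.3 and 9.35 CPM beside 11.5 and 16.8 CPM. These groups did not overlap, and the differences were within the spread that the fit estimated over all genes. Over all members, the CBFB_KO poly libraries lay above those of WT in 4, below in 3 and overlapped in 3. The same counts over all genes are not given here, so these do not mark the members out. GPX4 was at 236 and 241 CPM in CBFB_KO poly beside 235 and 203 CPM in WT poly, and GPX1 at 729 and 732 CPM beside 635 and 504 CPM.

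In the free fraction 6 of the 10 changed. TXNRD1 was higher in CBFB_KO and GPX1, GPX4, SELENOW, SELENOT and SELENOK were lower, so 1 and 5 members against 24.2% and 18.1% of all genes. The median of the 10 was -1.30 on the log2 scale and that of all genes was 0.04.

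GPX1 was at 178 and 50.3 CPM in CBFB_KO free and at 813 and 428 CPM in WT free (log2 fold change -2.44 ± 0.56, SE, n = 2; edgeR adjusted p = 0.00726). SELENOW was at 276 and 98.4 CPM in CBFB_KO free (-2.30 ± 0.50, adjusted p = 0.00562). GPX4 was at 54.6 and 25.5 CPM in CBFB_KO free (-1.70 ± 0.43, adjusted p = 0.0106). For all 3, both CBFB_KO libraries lay below both WT libraries, and the CBFB_KO libraries differed widely between themselves. Over all members, the CBFB_KO free libraries lay below those of WT in 6, above in 1 and overlapped in 3. The same counts over all genes are not given here, so these do not mark the members out.

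SELENOK was at 7.01 and 8.09 CPM in CBFB_KO free and at 28.2 and 19.3 CPM in WT free (-1.66 ± 0.37, SE, n = 2; edgeR adjusted p = 0.00621). SELENOT was at 14.4 and 8.29 CPM beside 39.2 and 23.3 CPM in WT (-1.46 ± 0.42, adjusted p = 0.0185). TXNRD1 was at 13.3 and 16.7 CPM in CBFB_KO free beside 5.38 and 4.80 CPM in WT free (1.55 ± 0.37, adjusted p = 0.00837), so its libraries lay above those of WT. TXNRD2 was at 5.10 and 2.23 CPM beside 5.34 and 11.2 CPM (-1.14 ± 0.50, adjusted p = 0.0819), and it rested on 120 and 22 counts in CBFB_KO. SELENOF (-0.42 ± 0.51), SELENOS (-0.09 ± 0.37) and SEPHS2 (0.18 ± 0.33) did not pass.

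**Figure D4:**
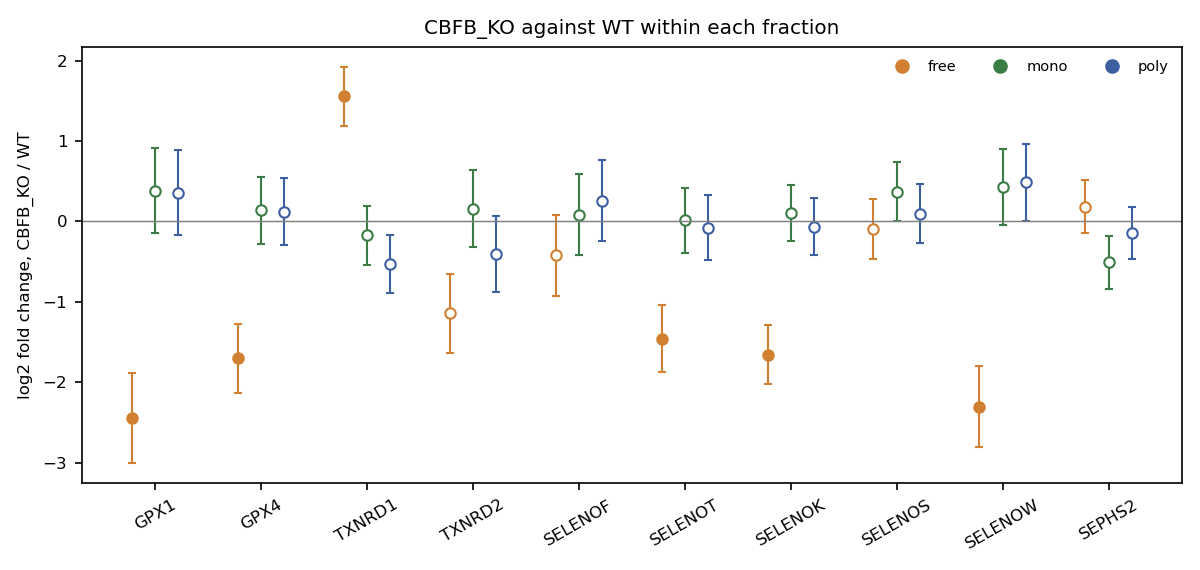
Log2 fold change of CBFB_KO over WT for each mRNA in the free, mono and poly fractions, with SE bars. Filled points passed an edgeR adjusted p of 0.05. The mono and poly points lie between -0.53 and 0.49, and the free points between -2.44 and 1.55.

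The direction in the free fraction depended on the scaling for TXNRD1, whose change was 1.55 with TMM factors, 0.18 with the length offset, -0.18 with library size alone and -0.22 by limma on log2(TPM + 1). Library size alone and the deposited TPM include the mitochondrial counts. As TPM outside the mitochondrial genome, TXNRD1 was at 9.88 and 13.5 in CBFB_KO free and at 1.62 and 1.83 in WT free. Library size alone moved the median of all genes to -1.57, and relative to that shift the median of the 10 mRNAs was -1.28. With the length offset GPX1 (-1.80), SELENOW (-1.50), GPX4 (-0.91) and SELENOT (-0.87) still passed and SELENOK (-0.77) did not. Across the 10 mRNAs this change and effective length had a Spearman correlation of 0.81, and across all genes one of 0.44, while with coding length the values were 0.39 and 0.40. The mitochondrial share and the lower depth of the CBFB_KO free libraries moved with these changes. Their part in these changes was not tested. A fit without mitochondrial genes, given at the end, keeps the same counts on all other genes and cannot decide it. Without the CBFB_KO free library of replicate 2, GPX1 (-1.79), GPX4 (-1.25), SELENOW (-1.73), SELENOK (-1.75) and TXNRD1 (1.39) passed and SELENOT (-1.11) did not. In a fit of the free libraries alone 0 of the 10 passed at similar sizes, and the same count came from leaving out CBFB_KO replicate 2 in all fractions. Without WT replicate 1 only TXNRD1 (1.64) passed.

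**Figure D5:**
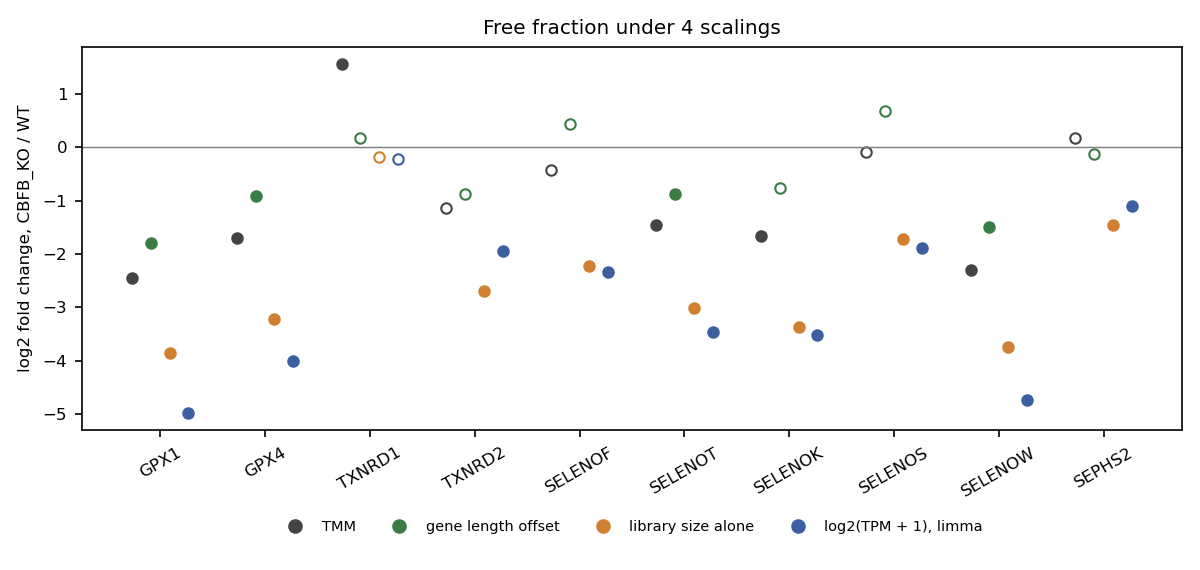
Log2 fold change of CBFB_KO over WT in the free fraction for each mRNA under 4 scalings: TMM, an offset for gene length, library size alone, and limma on log2(TPM + 1). Filled points passed an adjusted p of 0.05 and open points did not. GPX1, GPX4, SELENOT and SELENOW are below 0 and filled under all 4, and TXNRD1 is above 0 under TMM and the length offset and below 0 under the other scalings. Library size alone and TPM include the mitochondrial counts.

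Within CBFB_KO, 7 of the 10 were higher in poly than in free and 0 were lower, against 14.6% and 16.7% of all genes. GPX1 (log2 fold change 2.68 ± 0.57, SE, n = 2; edgeR adjusted p = 0.00521), TXNRD2 (2.68 ± 0.52, adjusted p = 0.00321) and GPX4 (2.57 ± 0.44, adjusted p = 0.00165) had the largest differences. SELENOS (1.69), SEPHS2 (1.68), SELENOK (1.55) and SELENOT (1.45) passed as well. SELENOW (0.54 ± 0.48), TXNRD1 (-0.61 ± 0.36) and SELENOF (-0.66 ± 0.51) did not. With the poly pair counted as 1 sample, GPX1, GPX4, TXNRD2 and SEPHS2 passed. Without CBFB_KO replicate 1, GPX1, GPX4 and TXNRD2 passed, and without CBFB_KO replicate 2 none did.

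The third comparison asked whether the balance of poly to free RNA differed between the genotypes, by the interaction of genotype and fraction. It was higher in CBFB_KO for 3 of the 10 and lower for 1, against 4.10% and 14.3% of all genes. GPX1 differed by 2.80 ± 0.77 on the log2 scale (SE, n = 2; edgeR adjusted p = 0.0288), SELENOW by 2.79 ± 0.69 (adjusted p = 0.0190) and SELENOK by 1.59 ± 0.51 (adjusted p = 0.0498), and TXNRD1 by -2.08 ± 0.51 (adjusted p = 0.0191). GPX4 was just short of the threshold, at 1.82 ± 0.59 (adjusted p = 0.0520). With the length offset GPX1 (2.09) and SELENOW (1.84) passed and SELENOK (0.57) and TXNRD1 (-0.64) did not, and library size alone gave TXNRD1 -0.35 and moved the median of all genes to 1.54. None of the 10 passed with the poly pair counted as 1 sample, without CBFB_KO replicate 2 or without WT replicate 2, and without WT replicate 1 only TXNRD1 did. With the gradient block SELENOK (edgeR adjusted p = 0.0683) no longer passed.

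With mono in place of poly, which uses the same free libraries, the balance was higher in CBFB_KO for 4 of the 10 and lower for 1, against 4.87% and 14.2% of all genes. The differences were 2.83 for GPX1, 2.73 for SELENOW, 1.84 for GPX4, 1.76 for SELENOK and -1.73 for TXNRD1 on the log2 scale. Since these contrasts share their free libraries, the values are set side by side and are not separate evidence. Leaving out CBFB_KO replicate 2 or either WT replicate left 0 calls, and without CBFB_KO replicate 1 GPX1, GPX4 and SELENOW passed. With the gradient block GPX1 and SELENOW passed, and GPX4, SELENOK and TXNRD1 (edgeR adjusted p = 0.0659, 0.0527 and 0.0587) did not.

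On the FPKM scale, the ratio of poly to free in CBFB_KO was not below 0.5 of the WT ratio for any of the 9 members whose mean FPKM reached 1 in both fractions of both genotypes, against 8.10% of all such genes. TXNRD1 came nearest, at 0.582 of the WT ratio (0.453 to 0.795 over the 4 pairings of libraries). SEPHS2 was at 2.36 and the others of the 9 between 3.53 (SELENOS) and 18.3 (GPX1) times the WT ratio. The pairings spread widely, from 8.23 to 88.1 for GPX1, from 8.01 to 65.4 for SELENOW and from 1.85 to 7.74 for SELENOS. TXNRD2, the member below the FPKM minimum, was at 5.25. FPKM is scaled to totals that include the mitochondrial counts, which lowers CBFB_KO free values and raises these ratios. As TPM outside the mitochondrial genome, SEPHS2 was at 6.73 and 4.49 in CBFB_KO free and 2.90 and 2.86 in WT free. In poly it was at 13.2 and 13.7 in CBFB_KO and 15.7 and 16.9 in WT, so its ratio lay below that of WT. Both CBFB_KO free libraries lay above both WT free libraries for SEPHS2, TXNRD1 and SELENOS, and below them for GPX1, GPX4, SELENOW and SELENOK. SELENOT, SELENOF and TXNRD2 overlapped, and the rule was not run on this scale. With TMM-scaled CPM in place of FPKM, TXNRD1 met the rule, as did 27.4% of all genes.

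Of 15 other selenoprotein genes, 9 passed the filter and were tested. SELENOH (log2 fold change -1.69, edgeR adjusted p = 0.0154) and SELENOM (-1.61, adjusted p = 0.0207), a nuclear and an endoplasmic reticulum member of the family, were lower in WT poly than in mono, and 0 of the 9 were higher (all genes, 9.68% and 11.0%). In the free fraction 3 of the 9 were higher in CBFB_KO and 4 were lower, where 24.2% and 18.1% of all genes were, among them MSRB1, a methionine sulfoxide reductase (-2.75), SELENOH (-2.69) and SELENOM (-2.66) on the lower side and SELENON, an oxidoreductase of the endoplasmic reticulum (4.54), on the higher side.

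Of the 16 tested genes for selenocysteine synthesis and insertion, 4 were higher in WT poly than in mono and 1 was lower (all genes, 11.0% and 9.68%). EIF4A3 (2.55), a junction complex subunit that binds some SECIS elements, NCL (2.51), which encodes nucleolin, and ELAVL1 (1.85) were higher, and RPL30, a ribosomal protein that binds SECIS elements, was lower (-2.26). In free, 4 were higher in CBFB_KO and 5 lower (all genes, 24.2% and 18.1%). SECISBP2 (1.40) and its relative SECISBP2L (3.63) were on the higher side, and EEFSEC (-1.63) and TRNAU1AP (-1.81), a tRNA-associated protein, on the lower side.

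Among the 10 nonsense-mediated decay factors, UPF1 (2.00), the helicase at the core of the pathway, SMG8 (1.76) and SMG6 (1.72), its endonuclease, were higher in WT poly than in mono and 0 were lower (all genes, 11.0% and 9.68%). In free, against the same 24.2% and 18.1% of all genes as for the lists that follow, 4 were higher in CBFB_KO and 1 lower, among them SMG1 (4.57) and SMG6 (4.27) up and SMG9 (-1.95) down. Of 13 tested relatives and partners without selenocysteine, 0 were higher and 4 lower in CBFB_KO free, among them the peroxiredoxins PRDX5 (-1.63) and PRDX2 (-1.46). Of 8 partners of SELENOS and SELENOK in endoplasmic reticulum degradation, 3 were higher and 1 lower in CBFB_KO free, with SYVN1, a ubiquitin ligase, at 4.74 and UFD1 at -1.45. Over the 56 tested genes of these 5 lists, edgeR called 0 between genotypes in mono and 0 in poly, with 1 at an unadjusted p under 0.05 in each, and DESeq2 called 0.

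By the Pearson correlation of log2(CPM + 1) over the 12 libraries, the gene outside the 10 most like GPX1 was PAFAH1B3 (r = 0.999), that most like SELENOW was LSM10 (0.999) and that most like GPX4 was NDUFS7 (0.997). For TXNRD1 it was NOTCH3 (0.985), and for SEPHS2 it was RPTOR (0.980). Among the 10, GPX1 and SELENOT had the highest correlation (0.977) and TXNRD1 and SELENOW the lowest (-0.965). All of these are over the same 12 libraries and describe only these.

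Some counts could be shared between loci. GPX1P1, a pseudogene of GPX1, took 1.03 to 2.08% of the summed counts of the pair. SELENOT overlaps SERP1 on the opposite strand, and TXNRD1 overlaps the pseudogene RPL18AP3 on its own strand. The sources used here do not state whether counting used the strand, so reads could not be assigned with certainty where these pairs meet.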

How the data were processed

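Trimmomatic, STAR and RSEM, with the build hg19, are named in the submitters' processing notes; versions are not given in the sources used here. The authors deposited 1 RSEM table per library. The deposited expected counts are estimated reads per gene, not normalized. The deposited TPM were scaled by the authors per length to a common sum, and the deposited FPKM per length and library total. The effective lengths deposited by the authors served for the length offset, a lowess trend with a span of 0.3. Hand-typed notes in a few tables were not used.

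Expected counts were rounded and fitted with edgeR 4.0.16 (R 4.3.3) by its quasi-likelihood test, with TMM factors, filterByExpr on the 6 conditions and 1 mean per condition over all 12 libraries. Calls needed a p below 0.05 after Benjamini-Hochberg adjustment over all genes tested. SEs are the log2 fold change over the square root of F. DESeq2 1.42.0 and limma 3.58.1, on log2(TPM + 1), were alternatives, with other scalings, filters, blocks and left-out libraries. The fits were also run on simulated counts, with changes planted in the CBFB_KO poly libraries alone. The outcome is not given here, and no genotype change was planted in the free fraction. A count of 3 is 4.7e-06 to 7.3e-06% of a library, which covers counting error only. Tables and plots were made with Python 3.11.15, pandas 2.3.3, scipy 1.17.1 and matplotlib 3.10.9. Symbols came from an identifier table that held 49995 of the genes.

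The members and the gene lists were chosen with earlier results of these data known. Named were all members, CBFB, up to 3 called genes per list, comparison and direction by size, and for each member the gene most alike in pattern. Some genes that this rule would name are not reported here.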

Additional observations from a re-analysis of the deposited data

Results flagged for a closer look

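For 9 values the difference between fractions was itself different between WT and CBFB_KO by the interaction test of edgeR (adjusted p under 0.05, n = 2 libraries per condition). For poly against free these were GPX1 (2.80 on the log2 scale), SELENOW (2.79), SELENOK (1.59) and TXNRD1 (-2.08). For mono against free they were GPX1 (2.83), SELENOW (2.73), GPX4 (1.84), SELENOK (1.76) and TXNRD1 (-1.73). A positive value means that the ribosome-bound fraction was higher relative to free in CBFB_KO than in WT. All 9 rest on the same CBFB_KO free libraries, in which mitochondrial genes took 71.6% and 87.2% of the counts. The part of that share in these values was not tested, since the fit without mitochondrial genes given below keeps the same counts on all other genes.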

How the results depend on the processing

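Of 696 values of the 39 called differences under alternatives, 496 kept direction and call, 194 lost the call and 6 changed sign. The sign changes were TXNRD1 in CBFB_KO against WT free with library size alone (-0.18) and by limma on TPM (-0.22), and, by limma on TPM, TXNRD1 in the mono to free difference (0.24), GPX4 in poly against mono in WT (0.11) and CBFB_KO (0.063), and SELENOK there in CBFB_KO (0.15). Their cause was not tested. With mitochondrial genes removed before the fit, 38 of the 39 calls held and 1 was lost. That fit rescales the same counts on all other genes, so it is no test of the mitochondrial share. No member passed in CBFB_KO against WT in mono or poly, or in the poly to mono difference, under any alternative run.

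Counts of members called moved by more than 1.5 times as follows. In WT poly against free (5), the fit of those conditions alone gave 3. In WT poly against mono (5), counting the CBFB_KO poly pair as 1 sample gave 3 and the gradient block 3. In WT mono against free (2), DESeq2 gave 4, its size factors 1, the gradient block 1, library size alone, limma on TPM, the 1-sample pair and the fit of those conditions alone 0, and leaving out the CBFB_KO free library of replicate 2, an alternative chosen after seeing the data, gave 5. In CBFB_KO poly against free (7), the 1-sample pair gave 4. In CBFB_KO poly against mono (5), the length offset gave 2 with or without the replicate block, the gradient block 3, the 1-sample pair 0 and those conditions alone 8. In CBFB_KO against WT free (6), those conditions alone gave 0. In the poly to free difference (4), limma on TPM gave 7, the length offset 2 with or without the replicate block, the 1-sample pair 0 and those conditions alone 2. In the mono to free difference (5), limma on TPM gave 8, no filter 2, the length offset 2 with or without the replicate block, the gradient block 2, the 1-sample pair 1, those conditions alone 0, and leaving out that free library 3. The FPKM ratio rule (0) gave 1, TXNRD1, with TMM-scaled CPM, under which 27.4% of all genes met it in place of 8.10%.

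With each genotype's replicate 1 or 2 left out in turn, the counts ranged from 1 to 4 in WT poly against free, 0 to 5 in WT poly against mono, 0 to 1 in WT mono against free, 0 to 7 in CBFB_KO poly against free, 0 to 4 in CBFB_KO poly against mono, 0 to 6 in CBFB_KO against WT free, 0 to 3 in the poly to free difference, 0 to 3 in the mono to free difference and 0 to 1 by the FPKM ratio rule. A condition left with 1 library was assumed to vary like the others.

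Same-numbered libraries had weakly related deviations (correlations from -0.16 to 0.28), which cannot exclude that they were paired. The labels do not say that the 3 fractions of a number came from 1 gradient. With the gradient as a block, 24 of the calls it can test held and 9 were lost. With the replicate block all 39 calls held, and the counts were 6, 6, 2, 7, 6 and 6 in the first 6 comparisons in the order above, and 5 in both differences with free. The depth of the CBFB_KO free libraries limits TXNRD2 most, at 22 counts in 1 of them.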
